A study of Mus musculus with 6 samples.

Results

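The 47 genes described here encode the Bmp and Tgf-beta signalling pathway: its ligands, receptors, Smad proteins, extracellular and membrane antagonists, and the Id genes that are direct targets of Bmp signalling. They were chosen by name from a list of pathway roles and matched by gene symbol and Ensembl identifier to the deposited table of 26852 genes, and all 47 had a row. Midbrains were dissected from mouse embryos at E14.5 on the C57Bl/6 strain, and their RNA was sequenced to ask which genes depend on the LIM homeodomain factor Lmx1b in developing midbrain dopamine (mdDA) neurons. The Lmx1b cKO embryos carried Lmx1b fl/fl with Pitx3-Cre and the control embryos carried Lmx1b wt/wt with Pitx3-Cre, with 3 libraries per genotype. Both genotypes therefore carried the Cre, and per the study's methods this was 1 Cre allele at the Pitx3 locus in each embryo. Pitx3 is expressed in mdDA neurons, and the study places the start of Cre activity shortly before the day of dissection. The other cells of the dissected midbrain lie outside this driver. Each library was made from a pair of pooled embryos, and which libraries shared a litter was not given.

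In this pathway a secreted dimer of the Bmp, Tgf-beta, activin or Gdf group binds a pair of type 2 and type 1 receptors, and the type 1 receptor then phosphorylates Smad proteins. Bmp receptors act through Smad1, Smad5 and Smad9, and Tgf-beta and activin receptors act through Smad2 and Smad3. Both groups join Smad4 and enter the nucleus, where Bmp signalling switches on the Id genes and the inhibitory Smads. In the developing brain, Bmps from the dorsal midline pattern the neural tube, Id proteins hold progenitors back from differentiation, and Tgf-beta ligands are known as survival factors of dopamine neurons.

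The deposited table gives a mean normalized count per genotype, which is the read count of each library divided by a size factor of that library and averaged over 3 libraries. The counts behind these means were recovered as whole numbers for 26355 genes (98.1%), among them all 47 pathway genes. Each recovered library has a genotype but no sample number, so the libraries are called a, b and c within a genotype, in order of falling size factor. They hold between 20629683 and 25051860 recovered reads. Lmx1b itself read 1257, 1401 and 1455 normalized counts in cKO a, b and c and 1368, 1352 and 1474 in control a, b and c, so the total on this gene does not check the labels, and directions below compare libraries by their labels alone. Of the 8 mdDA neuron markers all were detected, with a sum of 9105 to 9306 normalized counts in the cKO libraries and 9148 to 10784 in the controls. All of these markers except Slc18a2 had log2 fold changes below 0, and Ddc, Nr4a2 and Pitx3 were lower in every cKO library. Before adjustment Pitx3 (-0.41) and Ddc (-0.24) fell below the 0.05 threshold of limma, and after it 0 of the 8 did. A pair of libraries stood apart from the rest. The 12 markers of meninges and mesenchyme were all detected and summed to 14668 in cKO c and 3013 in cKO a. Their sum was 1119 in cKO b and 1134 to 1431 in the controls. Most of the sum in cKO c came from the collagens Col1a1 (6097), Col1a2 (4315) and Col3a1 (2320). Every marker except Pdgfra was highest in cKO c, but Foxc1 only narrowly, at 144 against 138 in cKO a. Pdgfra read 688 in cKO c and 829 in control b. Of these markers, Lum was at 0 in control b and control c and Aldh1a2 at 0 in cKO b. The 8 bone and cartilage markers summed to 4087 to 6390 in the cKO and 5409 to 5823 in the control, and Ibsp read 163 in cKO c and at most 1.08 elsewhere. The 6 cycling cell markers summed to 4996 in control a and to 2760 to 4037 in the other 5 libraries. In bulk tissue, fewer cells of a type and less RNA per cell cannot be told apart.

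Few pathway genes differed between Lmx1b cKO and control midbrains before adjustment, and none after it. Of the 47 genes, 3 reached an unadjusted p-value under 0.05 with limma, all of them lower in the cKO, namely the secreted Bmp antagonist Nbl1, the secreted Bmp modulator Smoc1 and the Bmp target Id3. Over all 16680 genes tested, 2.79% passed the same threshold, 1.61% as lower and 1.18% as higher, so the 3 members are a share of 6.38% beside that background. After Benjamini-Hochberg adjustment over all genes tested, 0 of the 47 members and 0% of all genes had an adjusted p-value under 0.05 in limma. With limma-trend, another fit of the same counts, 2 members passed the unadjusted threshold, beside 2.86% of all genes, and 0 the adjusted one. The groups did not overlap for 4 members (8.51%), with Nbl1 and Smoc1 lower and Tgfb2 and Acvr2a higher in every cKO library, where 7.67% of all genes tested had groups that did not overlap, 3.79% lower and 3.88% higher. The share with groups that did not overlap is near this background. The median log2 fold change was -0.029 over the 47 members and 0.00 to 2 decimals over all genes tested (-1.38e-05), with 20 members above 0 and 27 below. Leaving out 1 library at a time gave between 3 and 7 members with an unadjusted p-value under 0.05, and the most, 7, without control b. The share of all genes passing in these fits also moved, from 2% without control c to 3.81% without control a, and was 3.48% without control b. Leaving out a library moved the members' median to between -0.051 and 0.0295, and it was above 0 without cKO a or control a.

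**Figure D1:**
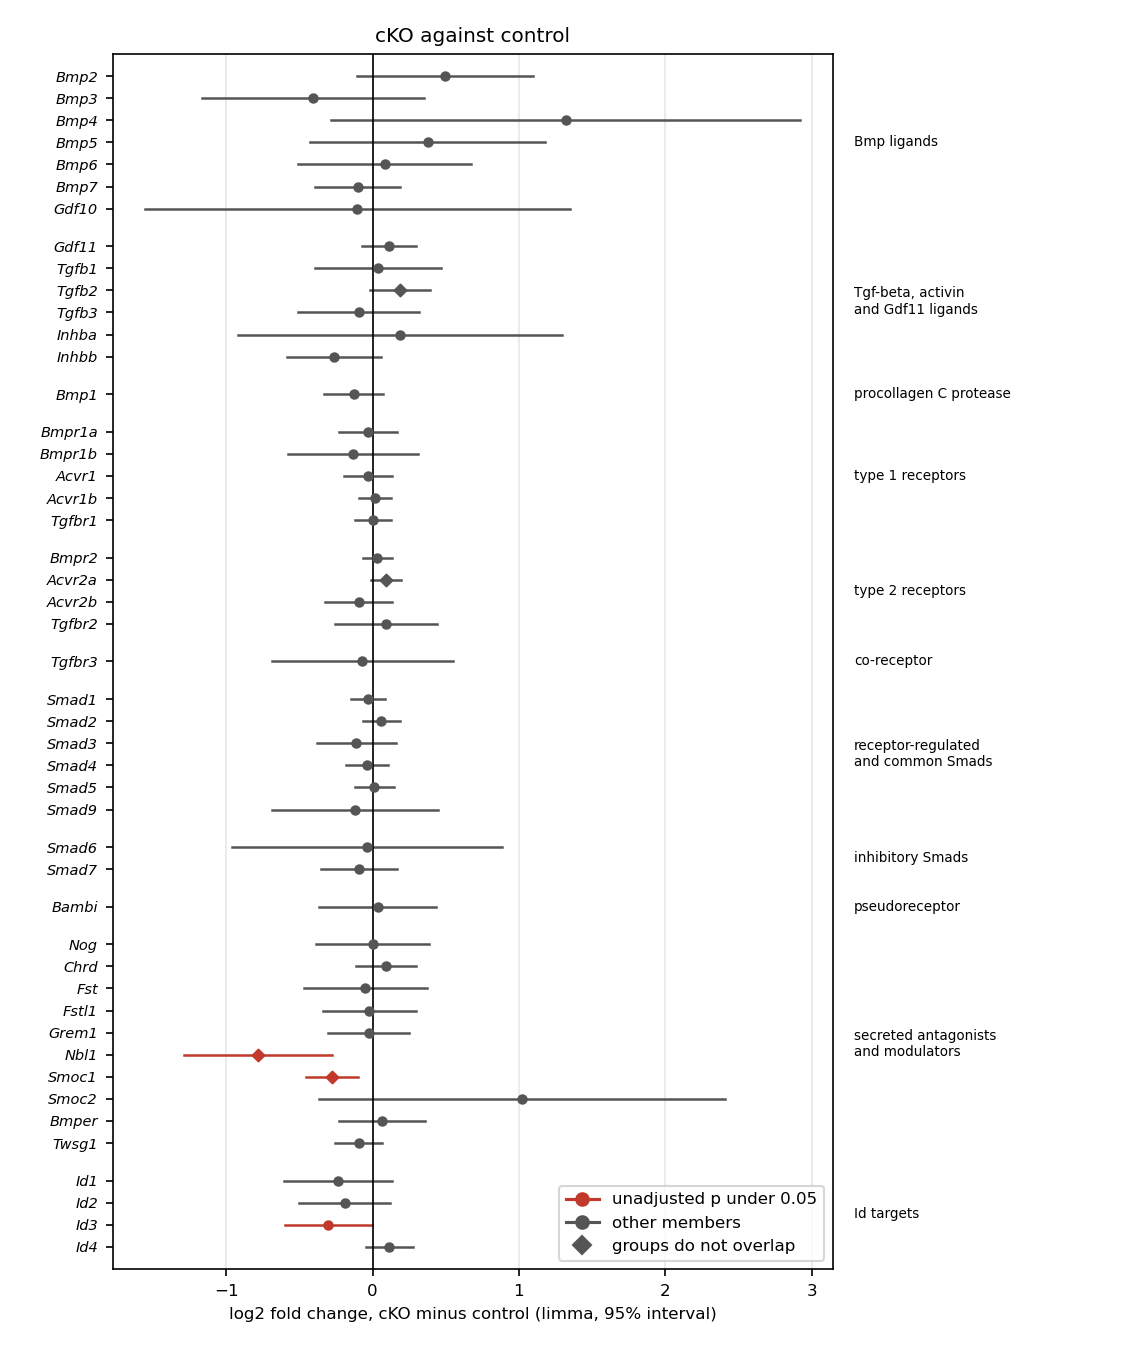
Log2 fold change (cKO minus control, horizontal axis) of the 47 pathway genes, listed by role, as fitted by limma on 3 libraries per genotype. Points are estimates, lines are 95% intervals, diamonds mark genes whose groups do not overlap, and red marks an unadjusted p-value under 0.05. Nbl1, Smoc1 and Id3 are the 3 red genes, all left of 0, and the widest intervals belong to the low genes Bmp4, Smoc2 and Gdf10.

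For the dissected midbrain as a whole, the data bounded the size of most differences. These bounds do not apply to the mdDA neurons alone, since the other cells of the tissue lie outside the driver. For the 20 members with a mean of at least 500 normalized counts in both genotypes, the 95% intervals of the fold change lay between 0.708 and 1.23 times the control level. Of all 47 members, 32 had an interval within a 1.5-fold change in either direction. The 15 others were the ligands Bmp2, Bmp3, Bmp4, Bmp5, Bmp6, Gdf10, Inhba and Inhbb, the co-receptor Tgfbr3, Smad6 and Smad9, the antagonists Nbl1 and Smoc2, and Id1 and Id3.

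Promoter sequence was at hand in RefSeq (GRCm38.p6) for 32 of the 47 genes, as 37 windows of the 250 bases before an annotated start. Smad3 and Smad4 are known to bind a short motif called the CAGA box, here searched on both strands as CAGAC. At least 1 CAGA box stood in 14 of the 37 windows, where 42.2% of all 32851 RefSeq windows of this length held one. Smads activated by Bmp receptors are known to bind a GC-rich motif, here called the GC site and searched as GGCGCC, which reads the same on either strand. At least 1 GC site stood in 10 of the 37 windows, where 9.6% of all windows held one. The windows compared were not matched for GC content, which ran from 42.8% (Bmp5) to 85.6% (Acvr1) over the members. Some members had more than 1 window, and no enrichment of either motif was tested. The motifs can share no more than a single base. The windows printed below belong to members whose groups did not overlap (Nbl1, Tgfb2 and Acvr2a) and to Id4, the member with the highest level per kilobase. They run 5′ to 3′ on the strand of the gene, and capitals mark either motif on either strand. They lie at chr4:139092971-139093220 on the minus strand (Nbl1), chr1:186705990-186706239 on the minus strand (Tgfb2), chr2:48813859-48814108 on the plus strand (Acvr2a) and chr13:48260866-48261115 on the plus strand (Id4).
Nbl1: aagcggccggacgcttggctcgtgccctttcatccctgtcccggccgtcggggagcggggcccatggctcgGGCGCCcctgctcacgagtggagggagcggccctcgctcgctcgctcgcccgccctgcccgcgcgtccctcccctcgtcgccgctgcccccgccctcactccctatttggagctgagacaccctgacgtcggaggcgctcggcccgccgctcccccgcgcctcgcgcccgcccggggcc
Tgfb2: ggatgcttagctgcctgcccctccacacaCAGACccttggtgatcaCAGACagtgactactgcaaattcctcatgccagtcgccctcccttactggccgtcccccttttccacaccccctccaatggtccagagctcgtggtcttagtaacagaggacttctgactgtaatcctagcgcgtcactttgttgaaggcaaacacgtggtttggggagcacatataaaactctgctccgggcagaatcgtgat
Acvr2a: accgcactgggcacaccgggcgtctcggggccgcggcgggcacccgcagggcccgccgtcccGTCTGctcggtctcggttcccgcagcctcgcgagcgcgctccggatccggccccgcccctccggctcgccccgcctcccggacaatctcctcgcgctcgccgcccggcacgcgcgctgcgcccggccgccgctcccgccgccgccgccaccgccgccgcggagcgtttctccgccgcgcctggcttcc
Id4: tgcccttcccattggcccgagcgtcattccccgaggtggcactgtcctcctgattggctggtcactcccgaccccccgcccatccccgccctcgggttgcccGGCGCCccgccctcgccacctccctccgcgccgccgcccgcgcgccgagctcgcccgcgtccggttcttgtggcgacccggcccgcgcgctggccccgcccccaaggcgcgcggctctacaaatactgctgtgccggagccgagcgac
The Nbl1 and Id4 windows hold 1 GC site each and no CAGA box, with a GC content of 77.6% and 75.6%. The Tgfb2 window holds 2 CAGA boxes at a GC content of 53.6%, and the Acvr2a window holds 1, on the opposite strand, at 82.0%. Of the printed windows, that of Nbl1 shares 23 bases with an annotated exon and the others share none. The windows of Id2 and Id3 share 161 and 250 bases with exons and are not printed, and they hold 1 GC site and 2 CAGA boxes, respectively. A match describes the letters and does not show a bound site.

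Levels can be compared between genes only per length, here as the mean normalized count per kilobase of annotated exon. On this scale Id4, several receptors and several Smads stood highest and the Bmp ligands were low, but other receptors and Smads, such as Tgfbr3 and Smad6, lay below Bmp7. Id4 ranked first with 1698 per kilobase in the cKO and 1573 in the control. The activin type 1 receptor Acvr1b (1216 and 1203) and the type 2 receptor Acvr2a (1221 and 1146) came next, in an order that differed between the genotypes, and then the Tgf-beta type 1 receptor Tgfbr1 (843 and 838). Smad4 (630 and 644) and Smad5 (639 and 632) followed. Smoc1 (400 and 482), Fstl1 (432 and 429) and Twsg1 (393 and 420) were the highest of the secreted antagonists and modulators. Among the ligands Gdf11 was highest with 319 and 296 per kilobase, and the highest true Bmp, Bmp7, stood at 78.1 and 84.9. The lowest of all 47 were Smoc2 (3.08 and 1.39), Inhba (2.35 and 2.15) and Bmp4 (7.18 and 2.47). The ranks rest on annotated exon length, and transcript lengths in this tissue were not measured.

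**Figure D2:**
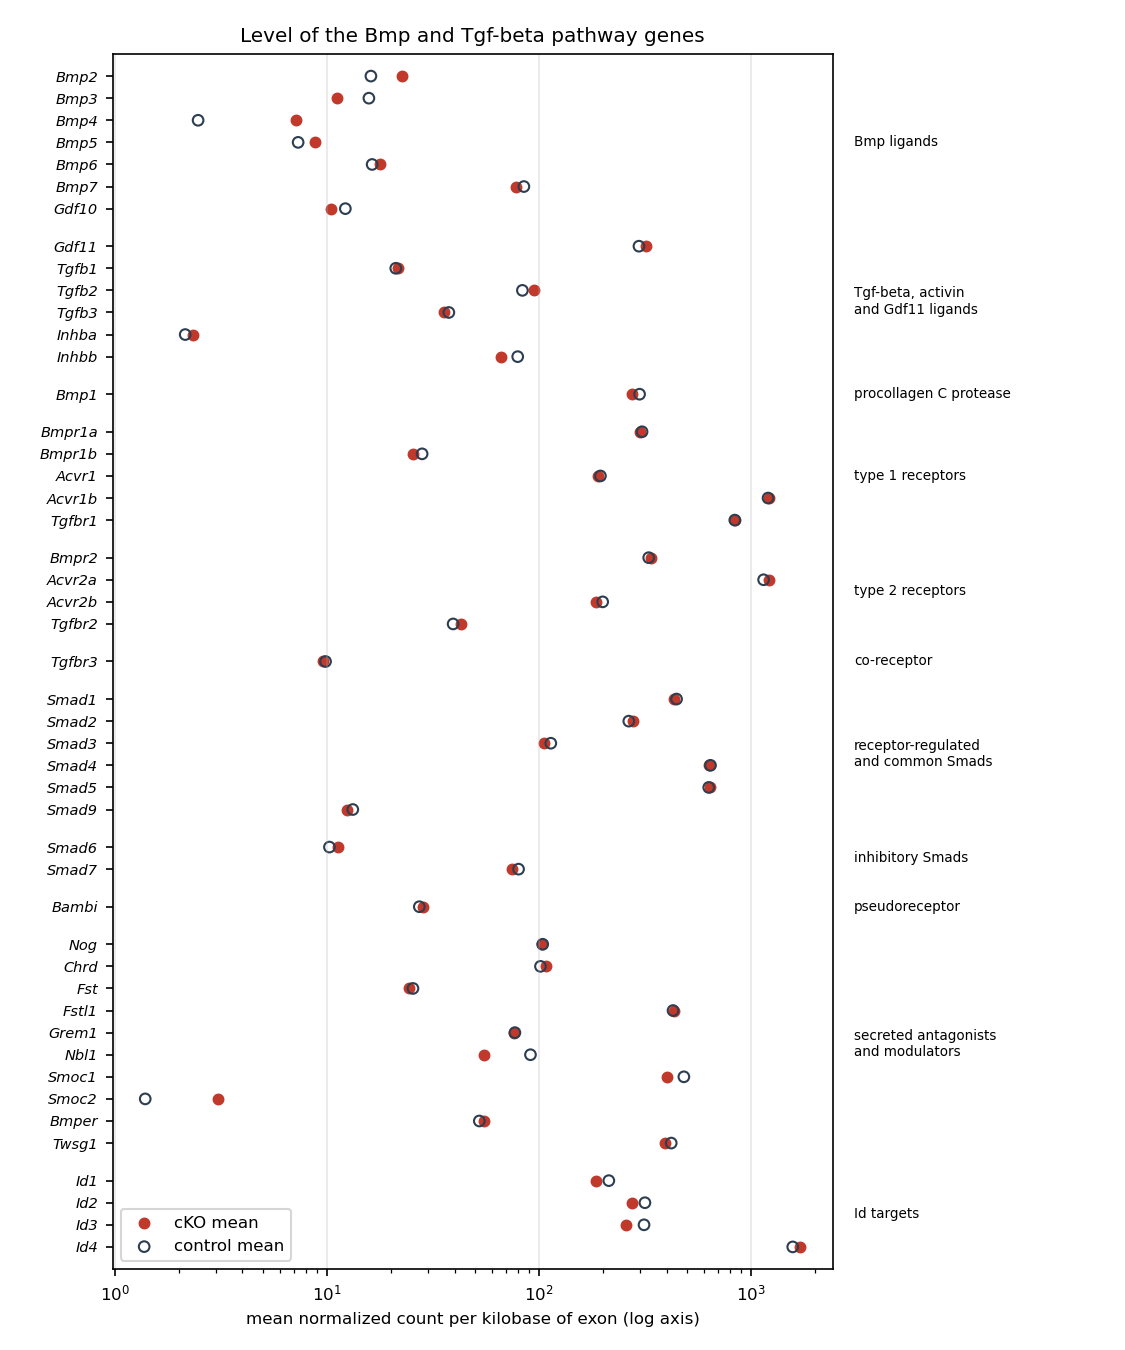
Mean normalized count per kilobase of exon (log axis) of the 47 genes by role, with filled points for the cKO mean and open points for the control mean of 3 libraries each. Levels run from 1.39 for Smoc2 in the control to 1698 for Id4 in the cKO, and for most genes the points of both genotypes lie on each other.

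Among the 7 Bmp ligands no gene passed the unadjusted threshold, and the log2 fold changes ran from -0.41 to 1.32 with 4 above 0 and 3 below. Bmp7, a broadly expressed Bmp of the embryo, read 340, 314 and 288 normalized counts in cKO a, b and c and 292, 364 and 368 in control a, b and c. Its groups overlapped, with the lowest value in cKO c and control a close to it. The means of 314 ± 26.1 and 342 ± 42.9 (SD, n = 3) gave a log2 fold change of -0.10 (SE 0.13), which is smaller than its error. Bmp2, a close relative of Bmp4, read 105, 72.9 and 63.9 in cKO a, b and c and 59.3, 46.1 and 67.0 in control a, b and c. Only cKO a and cKO b were above every control library, and the log2 fold change was 0.49 (SE 0.27). Without cKO c its unadjusted p-value fell under 0.05, and without cKO a the log2 fold change was 0.27. Of the others, Bmp3 and its relative Gdf10 each had their highest value in control a (188 and 136 normalized counts, against at most 102 and 98.3 in any other library). The difference in Bmp3 turned from -0.41 to 0.037 on the log2 scale without control a, and that in Gdf10 from -0.10 to 0.75. Bmp5 shares 46.7% of its exon sequence with Gm26903 on the opposite strand, and the use of strand in counting is not given in the sources used here, so its counts of 18.6 to 42.1 are uncertain. The log2 fold changes of Bmp5, Bmp6 and Gdf10 were 0.38 (SE 0.37), 0.083 (SE 0.27) and -0.10 (SE 0.66), and that of Gdf10 was -0.69 without control c. Bmp5 stood at 0.070 without control a and 0.65 without control c, and Bmp6 at 0.32 without cKO a and -0.081 without cKO c.

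The 6 ligands of the Tgf-beta, activin and Gdf11 group include the survival factors Tgfb1, Tgfb2 and Tgfb3. Tgfb2 read 536, 540 and 579 normalized counts in cKO a, b and c and 490, 458 and 503 in control a, b and c. Every cKO library was above every control library, by a small margin between cKO a and control c. The means were 552 ± 23.8 and 484 ± 23.2 (SD, n = 3), a log2 fold change of 0.19 (SE 0.094) with a 95% interval of 0.988 to 1.32 times the control. It did not pass the unadjusted threshold with all libraries or without any single library, and leaving out each in turn kept it between 0.15 and 0.21. An exact permutation test of the means, two-sided, gave p = 0.1, the smallest that 3 against 3 can give. Gdf11, which restrains neurogenesis in other parts of the nervous system, read 1300, 1380 and 1210 in the cKO and 1110, 1334 and 1164 in the control. Here the groups overlapped through control b, and its log2 fold change was 0.11 (SE 0.085). Tgfb1 and Tgfb3 had log2 fold changes of 0.039 (SE 0.20) and -0.095 (SE 0.19). Inhbb, the beta B chain of activin and inhibin, had means of 283 ± 45.5 in the cKO and 338 ± 36.9 in the control. This difference, -0.26 on the log2 scale (SE 0.15), passed the unadjusted threshold only without cKO c or without control a among the single libraries left out, and it was -0.13 without cKO a. Inhba, the beta A chain, read between 7.96 and 21.5 in all libraries, and its log2 fold change was 0.19 (SE 0.51).

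Bmp1 is grouped with the Bmps by name only, as it encodes a metalloprotease that cleaves procollagen and the Bmp antagonist chordin. It read 2040, 2550 and 2748 normalized counts in cKO a, b and c and 2569, 2606 and 2760 in control a, b and c. The lowest value was in cKO a. The log2 fold change was -0.13 (SE 0.092) with all libraries and 0.0031 without cKO a.

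None of the 10 receptors and co-receptors passed the unadjusted threshold, and their log2 fold changes stayed between -0.14 and 0.093. Acvr2a, a type 2 receptor for activins and several Bmps, read 7265, 6692 and 6892 normalized counts in cKO a, b and c and 6642, 6543 and 6384 in control a, b and c. All 3 cKO libraries lay above all 3 control libraries, with cKO b just above control a. The means of 6950 ± 291 and 6523 ± 130 (SD, n = 3) gave a log2 fold change of 0.091 (SE 0.046), or 1.07 times the control level with a 95% interval of 0.994 to 1.14. It passed the unadjusted threshold without cKO b and in none of the other fits with a single library left out. Of its exon bases, 7.8% lie on exons of Orc4 on the opposite strand. Bmpr2, the main type 2 receptor for Bmps, read 6209, 5807 and 6164 in the cKO and 5980, 5858 and 5925 in the control. The lowest and the highest value were both cKO libraries, and the log2 fold change was 0.033 (SE 0.045).

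The type 1 receptors carry the kinase that acts on Smads, and the most abundant of them differed by less than their error. Acvr1b read 5452, 5435 and 5233 normalized counts in cKO a, b and c and 5026, 5446 and 5479 in control a, b and c, with control a lowest. Its log2 fold change was 0.019 (SE 0.050), with an interval of 0.940 to 1.09 times the control. Tgfbr1 read 5113, 5671 and 5732 in the cKO and 5698, 5225 and 5502 in the control, and the log2 fold change of 0.0041 (SE 0.056) was far inside its error. The Bmp type 1 receptors Bmpr1a, Bmpr1b and Acvr1 had log2 fold changes of -0.031 (SE 0.091), -0.14 (SE 0.20) and -0.029 (SE 0.075). Acvr2b, the other activin type 2 receptor, stood at -0.094 (SE 0.10), and it was -0.21 without control a, where it passed the unadjusted threshold, and -0.020 without control c. Bmpr1a and Bmpr1b each had their highest value in control a, and without it both turned, to 0.090 and 0.068 on the log2 scale. Tgfbr2, the type 2 receptor of the Tgf-betas, reached 455 in cKO c and read 294 to 344 in the other 5 libraries. Its log2 fold change was 0.093 with cKO c and -0.094 without it. Tgfbr3 (betaglycan), a co-receptor that presents Tgfb2, read 45.9, 62.3 and 80.1 in the cKO and 53.1, 77.8 and 62.6 in the control, and the groups overlapped throughout.

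The 6 receptor-regulated and common Smads had log2 fold changes from -0.12 to 0.061. Smad4, the partner common to both branches, read 2141, 2492 and 2384 normalized counts in cKO a, b and c and 2448, 2316 and 2404 in control a, b and c. Smad5 read 4491, 4661 and 5063 in the cKO and 5040, 4530 and 4494 in the control. For both genes the cKO libraries spanned the control libraries, and the log2 fold changes were -0.036 (SE 0.065) and 0.011 (SE 0.061). Smad1, which with Smad5 carries the Bmp branch, had means of 2727 ± 78.4 and 2789 ± 57.4 (SD, n = 3). Smad2, which carries the Tgf-beta and activin branch, had means of 2434 ± 97.2 and 2330 ± 91.0. Smad9, the least abundant Smad of the Bmp branch, had a log2 fold change of -0.12 (SE 0.26). Smad3 was highest in control a with 755, against 539 to 625 elsewhere, and its log2 fold change went from -0.11 to 0.036 without that library. The inhibitory Smad7, a feedback target of both branches, read 341, 353 and 323 in the cKO and 338, 403 and 347 in the control, which gave a log2 fold change of -0.092 (SE 0.12). Smad6, the inhibitor of the Bmp branch, was low, at 16.9 in cKO a and 28.8 to 48.7 in the others. The pseudoreceptor Bambi, which lacks a kinase and is often induced with Bmp signalling, read 118, 149 and 165 in the cKO and 130, 147 and 138 in the control, with a log2 fold change of 0.034 (SE 0.18).

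Of the 10 secreted antagonists and modulators, Nbl1 and Smoc1 passed the unadjusted threshold, both lower in the cKO, and the other 8 did not. Nbl1 (ENSMUSG00000041120, chromosome 4 of GRCm38, 139082284 to 139092993), also called DAN, is the founding member of a family of secreted Bmp antagonists. Its normalized counts were 99.3, 79.3 and 156 in cKO a, b and c and 187, 160 and 210 in control a, b and c. All cKO libraries were below all control libraries, but cKO c came within a few counts of control b. The means of 112 ± 39.7 and 185 ± 25.1 (SD, n = 3) gave a log2 fold change of -0.78 (SE 0.23), or 0.582 times the control level with a 95% interval of 0.410 to 0.826 (adjusted p = 1.00 in limma). It had the lowest log2 fold change of the 47 members. It kept an unadjusted p-value under 0.05 with each of the 6 libraries left out in turn, and the log2 fold change then ran from -1.03 without cKO c to -0.58 without cKO b. The exact permutation test of the means gave p = 0.1, two-sided.

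Smoc1 (ENSMUSG00000021136, chromosome 12, 81026808 to 81186414) encodes a secreted calcium-binding protein of the matrix that limits Bmp signalling. It read 1435, 1263 and 1500 normalized counts in cKO a, b and c and 1841, 1638 and 1587 in control a, b and c. The groups did not overlap, with cKO c and control c nearest to each other. The means of 1399 ± 123 and 1689 ± 135 (SD, n = 3) gave a log2 fold change of -0.28 (SE 0.082), or 0.826 times the control level with a 95% interval of 0.729 to 0.936 (adjusted p = 1.00 in limma). Its unadjusted p-value also stayed under 0.05 with each library left out, with log2 fold changes of -0.32 to -0.21. Of the radial glia markers, Slc1a3 and Hes5 also had an unadjusted p-value under 0.05 and log2 fold changes of -0.21 and -0.33. Glul, Nes, Sox2 and Pax6 stood at -0.060, -0.041, 0.0074 and 0.24 and did not pass, although Glul was lower in every cKO library. These 6 recovered markers of the 8, all detected, summed to 19963 to 22304 in the cKO and 21839 to 22779 in the control. Fabp7 and Vim, too high to be recovered, had authors' means of 12594 and 10031 in the cKO and 13725 and 11056 in the control. Slc1a3, Hes5 and the mdDA neuron markers Pitx3 and Ddc thus had lower cKO means, as Nbl1, Smoc1 and Id3 did. Of the 7 blood markers, all detected, Hba-a1 and Hbb-bs were higher in the cKO before adjustment, with log2 fold changes of 0.26 and 0.30, and of the others only Hbb-bt was below 0. Their sum was 13419 to 17409 in the cKO and 12011 to 16502 in the control. The part of these cell types in the values of Nbl1, Smoc1 and the Id genes was not tested.

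The classical antagonists showed no difference beyond the spread between libraries. Nog (noggin) had means of 177 ± 19.9 in the cKO and 177 ± 31.9 in the control (SD, n = 3), and Chrd (chordin) 676 ± 28.0 and 637 ± 61.1. Fst (follistatin), which binds activins, had 113 ± 4.05 and 117 ± 17.8, and Grem1 (gremlin) 316 ± 39.8 and 320 ± 9.50. The 95% intervals of these genes lay between 0.723 and 1.31 times the control level. Fstl1, a secreted relative of follistatin that is abundant in mesenchyme, read 1646, 2036 and 2684 normalized counts in cKO a, b and c and 2408, 1860 and 2049 in control a, b and c. The lowest and the highest of its values were cKO a and cKO c, and the log2 fold change was -0.023 (SE 0.15). Twsg1, a Bmp-binding partner of chordin, had a log2 fold change of -0.095 (SE 0.073), and it passed the unadjusted threshold only without control b among the single libraries left out. Bmper had a log2 fold change of 0.066 (SE 0.13).

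The 4 Id genes encode helix-loop-helix proteins that bind bHLH factors and keep them from DNA, and they are the usual readout of Bmp signalling. Here Id1, Id2 and Id3 had lower means in the cKO and Id4 a higher one, and Id3 alone passed the unadjusted threshold. Id3 (ENSMUSG00000007872, chromosome 4, 136143497 to 136145755) read 409, 551 and 420 normalized counts in cKO a, b and c and 646, 526 and 509 in control a, b and c. The groups overlapped, since cKO b was above control b and control c. The means of 460 ± 78.6 and 560 ± 74.6 (SD, n = 3) gave a log2 fold change of -0.30 (SE 0.14, adjusted p = 1.00 in limma). The unadjusted p-value was under 0.05 in 3 of the 6 fits with a library left out, and not without cKO a, cKO c or control a, where the log2 fold change was -0.22, -0.25 and -0.19. With cKO c and control a both left out it was -0.14. With limma-trend the value was -0.29, and the gene did not pass the unadjusted threshold.

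Id1 read 174, 213 and 259 normalized counts in cKO a, b and c and 273, 254 and 217 in control a, b and c, with a log2 fold change of -0.24 (SE 0.17), between -0.37 without cKO c and -0.081 without cKO a, and overlapping groups. Id2 read 671, 689 and 654 in the cKO and 987, 659 and 668 in the control. The 5 libraries other than control a lay between 654 and 689, and the log2 fold change went from -0.19 (SE 0.14) to 0.018 without control a. Id4, which is expressed in neural progenitors and young neurons, read 6844, 6819 and 5942 in the cKO and 5463, 6621 and 6081 in the control. Control a was lowest, and the log2 fold change was 0.12 (SE 0.074) with an interval of 0.969 to 1.21 times the control. It was 0.040 without control a, and 0.18 without cKO c or without control b, where it passed the unadjusted threshold. The summed Id level was 7275 to 8272 in the cKO and 7369 to 8060 in the control, and it is mostly Id4. Control a had the highest Id1, Id2 and Id3 and the lowest Id4, and it is also the library with the highest sum of cycling cell markers. The library with the next highest sum, cKO b (4037), had the next highest Id2 and Id3, but an Id1 of 213 and an Id4 of 6819. Control b, with the lowest sum (2760), read 254 for Id1, 659 for Id2, 526 for Id3 and 6621 for Id4. The part of cycling cells in these values was not tested.

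**Figure D3:**
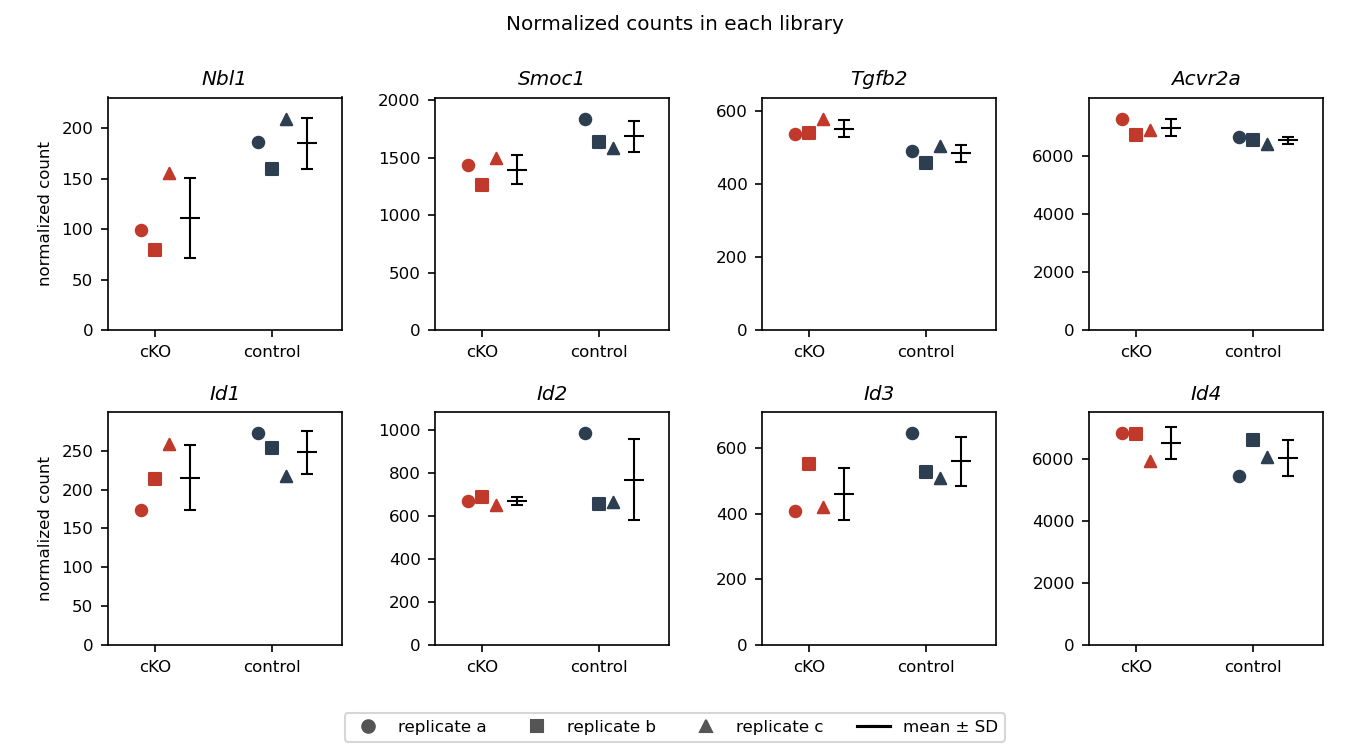
Normalized count of 8 pathway genes in each library (vertical axes from 0), with circles, squares and triangles for replicates a, b and c of each genotype, and the mean ± SD of 3 libraries beside them. Nbl1 and Smoc1 lie lower and Tgfb2 and Acvr2a higher in every cKO library, while the groups of the 4 Id genes overlap and control a is the highest point for Id1, Id2 and Id3.

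The highest log2 fold changes of the 47 belonged to a pair of low genes, whose control means lay under the minimum mean of 10 and which were tested only through higher cKO values, so a high value was favoured by the filter. Bmp4, a Bmp of the roof plate and of mesenchyme, read 6.56, 11.6 and 30.3 normalized counts in cKO a, b and c and 9.73, 4.80 and 2.16 in control a, b and c. Smoc2, the relative of Smoc1, read 17.8, 8.45 and 37.9 in the cKO and 7.08, 5.76 and 16.2 in the control. Both were highest in cKO c, the library with the highest sum of meninges and mesenchyme markers, and both groups overlapped. Their log2 fold changes were 1.32 (SE 0.73) and 1.02 (SE 0.63). Without cKO c, the value for Smoc2 was 0.52, and Bmp4 was left under the minimum mean and had no value. In cKO b, whose mesenchyme sum (1119) was close to that of control a (1134), Bmp4 was above every control at 11.6. Smoc2 in cKO b, at 8.45, was below control c. In cKO a, with the next highest sum (3013), Bmp4 was below control a at 6.56 and Smoc2 above every control at 17.8. Bmp4 passed the unadjusted threshold only without cKO a, and Smoc2 only without cKO b, among the single libraries left out. These 2 genes were singled out after their values were seen. The part of mesenchyme in these values was not tested.

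Over all 47 members, cKO c was the highest library for 14 (29.8%), where it was the highest for 16.4% of all genes tested. Control a was the highest for 11 members (23.4%), beside 18.7% of all genes. The 14 members highest in cKO c included Tgfbr2, Tgfbr3, Tgfb2, Tgfb3, Fstl1, Grem1 and Bambi. The 11 highest in control a included Bmp3, Gdf10, Bmpr1a, Bmpr1b, Smad3 and 3 of the Id genes. cKO a was the lowest library for 13 members (27.7%), beside 19.1% of all genes. Members of a library are not independent of each other, and these shares are descriptions.

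**Figure D4:**
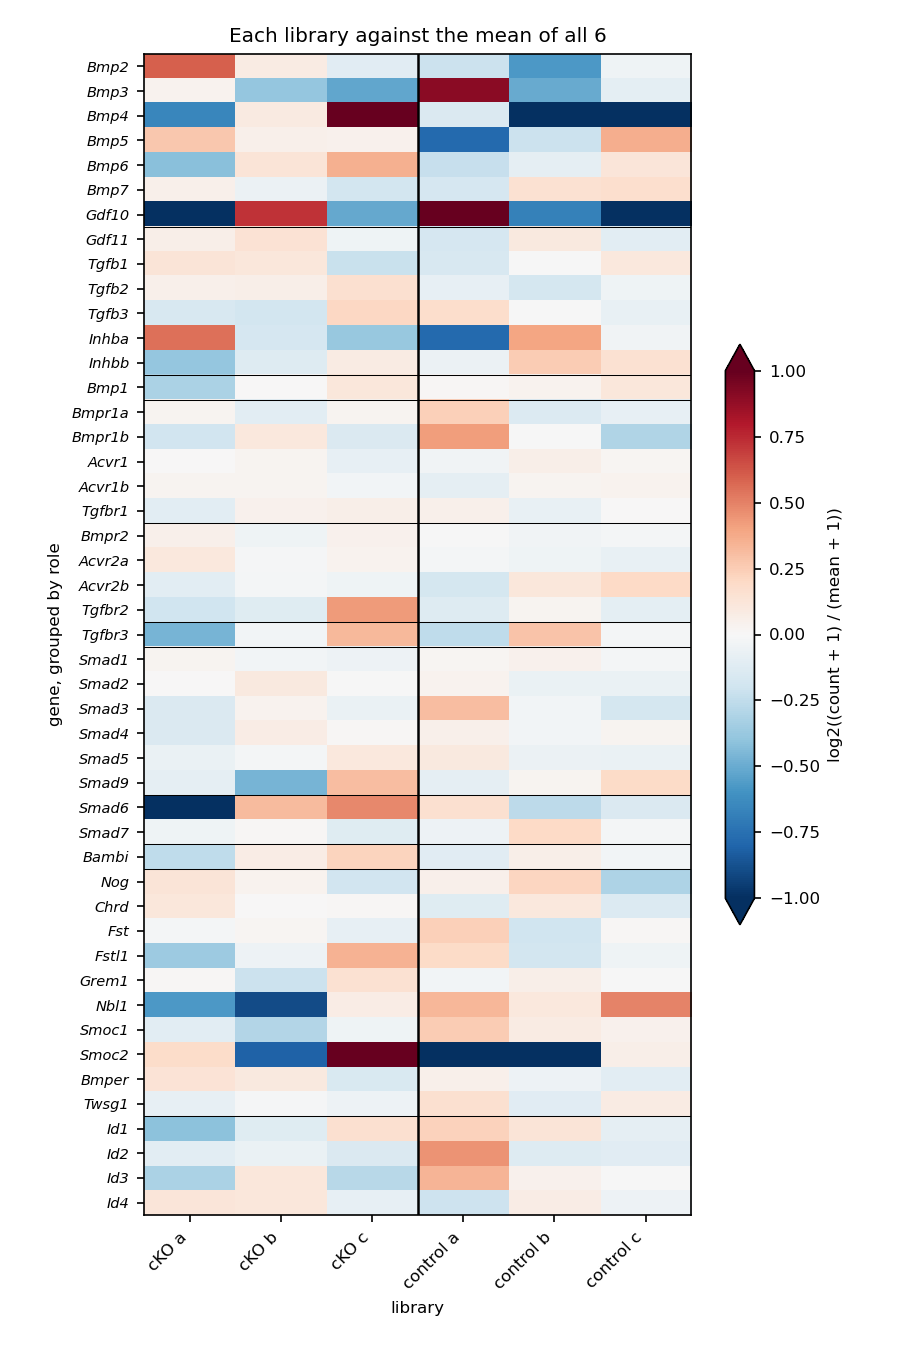
Log2 of each library's normalized count over the mean of all 6 libraries, with a pseudocount of 1, for the 47 genes in rows grouped by role and the libraries in columns (colours end at -1 and 1). Most receptors and Smads are pale, and the columns cKO c and control a hold the darkest red cells. The strongest colours lie in low ligands, Smad6, Smoc2 and, in cKO b, Nbl1.

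A wider list of 91 other genes of the pathway was read in the same way, and 85 had a row, of which 66 were tested. The 6 without a row are not analysed here. The median over the 66 was -0.0068, with 29 above 0 and 37 below, and 0 had an adjusted p-value under 0.05 in limma. In 3 of the 66, groups did not overlap, where 7.67% of all genes tested had such groups. All 3 were lower in the cKO (3.79% of all genes), namely the integrin Itgav, the follistatin relative Fstl4 and the target Hey1, with log2 fold changes of -0.18, -0.17 and -0.10. These shares are not far from the background.

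By role, 0 genes passed the unadjusted threshold of limma among 5 other ligands, 6 receptors and co-receptors, 14 genes of latency, matrix binding and activation, 15 antagonists and modulators and 16 intracellular regulators. Per kilobase of exon, the most abundant gene was Inha among the other ligands (769 in the cKO and 736 in the control), the Bmp co-receptor Rgma among the receptors (1158 and 1215), and the integrin Itgb8, which activates latent Tgf-beta (237 and 259). Crim1 led the antagonists (417 and 429) and Strap, an adaptor that binds receptors and Smad7, the intracellular regulators (1804 and 1806). Tsc22d1 led the targets, with the authors' means of 2221 and 2210 per kilobase, and its counts were too high to be recovered per library. For these genes, unlike the members, overlap with exons of other genes was not checked, so these ranks are uncertain. The log2 fold changes of Inha, Rgma, Itgb8, Crim1 and Strap were 0.068, -0.068, -0.14, -0.033 and -0.00098, and none passed the unadjusted threshold.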

How the data were processed

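Paired-end libraries, 3 per genotype, were sequenced from RNA of E14.5 midbrain dissections. Per the labels' processing notes the tools were TopHat 1.0.14, Bowtie2 2.1.0, HTSeq 0.6.1p1 and DESeq 1.10.1 on build GRCm38.p4. The use of strand in counting is not given in the sources used here. The signal that the authors deposited is the mean of size-factor-normalized read counts per genotype. The table's columns of ratios, log2 ratios and p-values hold the authors' comparison and were not used. Its 3 lines that name no gene hold 31.8% of the mean counts and were left out.

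Read counts per library were recovered by a search for the only whole numbers, up to 30000, that give each printed mean. All 1000 simulated means and 0 of 500 decoy values had an answer, and 497 genes were too high. The 26355 recovered genes hold 69.5% of gene counts. Recovered size factors differed from recomputed ones by at most 0.125%. Replicates differed by more than counting noise.

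The 16680 genes whose normalized count averaged 10 or more entered a limma fit (version 3.58.1 under R 4.3.3) that used voom weights and genotype as the only term. The fit was first tested on simulated data. Unadjusted p-values were read at 0.05, and adjusted ones by Benjamini-Hochberg over all genes tested. Intervals are 95% from limma. Single genes were compared by the exact permutation test, which cannot go below 0.1. The alternatives were limma-trend with a prior count of 1, upper-quartile and total-count scaling, no minimum or a minimum mean of 100, thresholds of 0.01 and 0.1, other summaries of the median, and each library left out. A fit without cKO c and control a was added after seeing the data.

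Values per library are given for members with an unadjusted p-value under 0.05 or groups that did not overlap, for the 2 highest members per kilobase of each role (1 in roles of 1 or 2 genes) and for all Id genes. Other pathway genes are named where they led their list, and 1 result among the targets is not reported here. The members, the lists and these rules were chosen with earlier results of these data known. Gene positions and exon lengths came from GENCODE on GRCm38, and Ctgf was matched by a later symbol. Scripts ran under Python 3.11.15 (scipy 1.17.1, numpy 2.4.6, numba 0.67.0, pandas 2.3.3; figures by matplotlib 3.10.9).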

Additional observations from a re-analysis of the deposited data

How the results depend on the processing

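With each library left out in turn, the number of pathway genes with an unadjusted p-value under 0.05 ran from 3 to 7 (5 without cKO b, 6 without cKO c and 7 without control b, beside 2.99%, 3.47% and 3.48% of all genes), and Nbl1 and Smoc1 were among them in every such fit and under every other alternative fit. Id3 was not among them with limma-trend, without cKO a, cKO c or control a, or with cKO c and control a both left out. The cause was not tested. After adjustment, 0 of the 47 passed under any alternative. Genes that passed unadjusted in only some fits with a library left out were Bmp2, Bmp3, Bmp4, Gdf11, Inhbb, Bmp1, Acvr2a, Acvr2b, Smoc2, Twsg1, Id3 and Id4. The median log2 fold change of the 47 genes ran from -0.051 without cKO c to 0.0295 without control a, was 0.012 as a mean in place of the median, and was 4.92e-05 with cKO c and control a both left out. Of the 47 genes, 23 kept the sign of their log2 fold change in every planned refit (up to 11). No paired analysis was possible because the recovered libraries carry no sample number. The 95% intervals, which hold counting error and the spread between libraries together, were widest for genes of few reads: they reached 7.56 times the control for Bmp4 and 5.31 for Smoc2, and ran from 0.341 to 2.55 for Gdf10, which read 18.4 to 136 over the libraries.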
